A study of Homo sapiens with 15 samples.

Results

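HOX genes encode homeodomain transcription factors that give cells their position along the body axis, and in vertebrates they lie in clusters A, B, C and D on separate chromosomes. Genes with the same number in different clusters are paralogues, and within a cluster the number rises from the end that is used in anterior tissues to the end used in posterior ones. Polycomb repressive complex PRC2, which methylates histone H3 to keep developmental genes silent, covers HOX clusters in cells that do not use them, while trithorax proteins keep used HOX genes on. Urogenital tissues, the prostate among them, use the posterior paralogues.

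The genes described here were all 38 rows of the expression table named HOXA, HOXB, HOXC or HOXD followed by digits, without HOXB13, out of 26443 genes with values. They comprised 11 genes of cluster A and 9 each of clusters B, C and D, and no level was required. The cells were LNCaP, a human prostate cancer line that depends on androgen signalling, labelled wild type in genotype in every group, and their RNA had been sequenced. The control group had been infected with a lentivirus carrying the control vector pLKO, and the others with a lentivirus carrying a short hairpin RNA against PALI1 (shPALI1), G9a (shG9a), JARID2 (shJarid2) or SUZ12 (shsuz12), each for 4 to 5 days. Each group had 3 libraries, 15 in all, and each library was made from the RNA of a bulk of cells, so that fewer cells with an RNA and less of it per cell cannot be told apart. SUZ12 is a core subunit of PRC2, JARID2 and PALI1 are accessory proteins of it, and G9a is a methyltransferase of another repressive mark on histone H3. By its title, the study is about how PALI1 brings PRC2 to the targets of G9a.

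Levels are given in RPKM, read counts divided by gene length and by library depth, so that genes of different length can be compared. Libraries held 10.56 to 19.36 M reads, as worked out from the steps of the values, and 3 reads in a gene of 2 kb were worth 0.077 to 0.14 RPKM, the level under which a gene could not be told from absence. Replicate 3 of shJarid2 stood apart, with correlations across genes of 0.975 and 0.978 with the other libraries of its group, against 0.992 between those. The RNA targeted by each hairpin was at 23.8% (C10orf12, the row for the PALI1 part), 25.7% (EHMT2, which encodes G9a), 18.3% (JARID2) and 12.5% (SUZ12) of its pLKO level in its own group. The LCOR row, whose locus makes PALI1, was at 60.0% in shPALI1. Some of these RNAs also differed from pLKO in groups of other hairpins, without overlap between libraries. In shsuz12 JARID2 was at 141.2% of pLKO, LCOR at 157.7% and EHMT2 at 80.3%, and in shJarid2 EHMT2 was at 71.5%. The luminal markers KLK3, KLK2, TMPRSS2, FOLH1, FOXA1, KRT8 and KRT18 were present, and their summed level ran from 1813.5 to 1998.8 RPKM in pLKO, 749.6 to 845.1 in shPALI1, 931.4 to 1002.3 in shG9a, 1375.2 to 1684.9 in shJarid2 and 1132.9 to 1226.4 in shsuz12. This sum was lowest in shPALI1, and its part in the HOX values was not tested. The single markers did not move together. In shPALI1 KLK3 was at 27.1% of pLKO, TMPRSS2 at 28.8%, KRT8 at 90.1% and FOXA1 at 98.6%. KRT8 was at 136.5% in shG9a and 195.0% in shJarid2, where KLK3 was at 32.9% and 55.4%. Of 3 basal, 3 neuroendocrine, 4 fibroblast, 3 endothelial and 3 immune markers, the summed levels per library were at most 4.86, 5.09, 6.02, 2.48 and 4.85 RPKM, in shJarid2, shsuz12, shG9a, shG9a and shJarid2. The markers TP63, KRT5, DCN, PECAM1, CDH5, PTPRC and CD3E were at 0 or under 0.1 RPKM in every library, whereas the neuroendocrine markers CHGA and INSM1 reached 0.144 and 0.309 RPKM in single libraries of shG9a and shPALI1. Other listed markers differed between groups: KRT14 was at 4.02 RPKM in shJarid2 against 0.361 in pLKO, SYP at 4.88 in shsuz12 and 1.84 in shG9a against 0.66, and COL3A1 at 2.02 in shPALI1 against 0.279. LUM was at 1.06 RPKM in shsuz12 against 0.0362 in pLKO, VWF at 2.35 in shG9a against 0.825, and COL1A1 at 1.41 in shJarid2 against 4.52. CD68 was at 4.14 RPKM in shPALI1 and 4.09 in shJarid2 against 2.74. The part of these markers in the HOX values was not tested.

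Most HOX genes were silent or nearly so, and what was expressed came mainly from cluster C. Cluster D was silent: its 9 genes, on chromosome 2 from 176092891 to 176190907 (plus strand, GRCh38, GENCODE v29), together had 26 reads over the 15 libraries. Cluster C, on chromosome 12 from 53938765 to 54056030 (plus strand), had 12959 reads. Cluster A, on chromosome 7 (minus strand), had 2388, and the 9 genes of cluster B, on chromosome 17 from 48528526 to 48633572 (minus strand), had 766. In every library cluster C gave between 69.0% and 88.1% of the summed RPKM of all 38 genes.

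**Figure D1:**
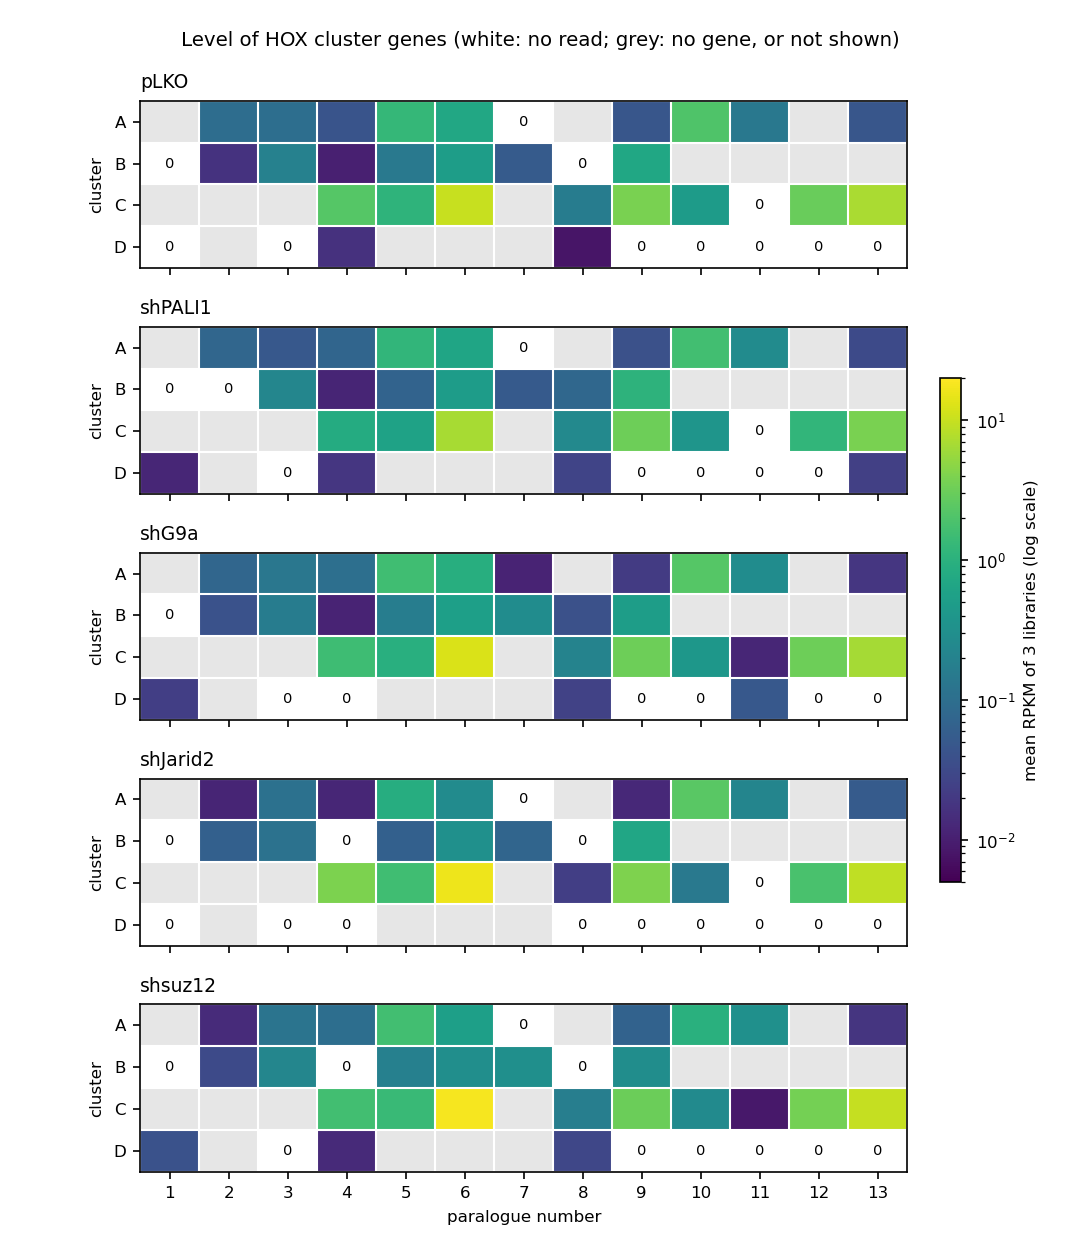
Mean level in RPKM of HOX genes in each group, on a logarithmic colour scale, with the cluster on the vertical axis and the paralogue number on the horizontal axis (white, no read; grey, no gene or not shown). HOXC6 and HOXC13 have the highest levels in all 5 groups, while cluster D is at or near 0 throughout.

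Only 9 of the 38 genes reached 1 RPKM in at least 3 libraries, the level set for testing: HOXC13, HOXC12, HOXC9, HOXC6, HOXC5, HOXC4, HOXA10, HOXA5 and HOXB9. They held 91.6% of the 16139 reads of all 38 genes. HOXB9 reached 1 RPKM in the 3 shPALI1 libraries and in no other, so it entered the test through the group in which it was high. In pLKO the order of these 9 levels was HOXC6 at 10.1 ± 0.77 RPKM (SD, n = 3), HOXC13 at 6.97 ± 0.3, HOXC9 at 3.75 ± 0.82 and HOXC12 at 2.99 ± 0.66. HOXC4 followed at 2.27 ± 0.32, HOXA10 at 2.03 ± 0.23, HOXA5 at 1.24 ± 0.12, HOXC5 at 1.09 ± 0.22 and HOXB9 at 0.693 ± 0.19. HOXC6 and HOXC13 stood above all the others without overlap between libraries, whereas the ranges of HOXC9 and HOXC12, of HOXC12 and HOXC4, and of HOXC4 and HOXA10 overlapped, as did those of HOXA5 and HOXC5. HOXB13, the posterior gene that lies apart from the rest of cluster B and marks the prostate lineage, was far above them at 126.1 RPKM in pLKO (111.4 to 140.4 over its libraries), and it is not among the 38.

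Of the 29 genes that were not tested, HOXB1, HOXD3, HOXD9, HOXD10 and HOXD12 had no read in any library. Another 8 were low but above 0.2 RPKM in the mean of at least 1 group. Of these, HOXA6 had group means from 0.271 (shJarid2) to 0.892 RPKM (shG9a) and reached 1 RPKM in 1 library. HOXB6 ranged from 0.300 (shsuz12) to 0.537 (shG9a), and HOXC10 from 0.145 (shJarid2) to 0.472 (pLKO). HOXA11, HOXB3, HOXB7 and HOXC8 stayed at or under 0.326 RPKM in every group mean. The remaining 16 genes, among them HOXA9 and HOXA13, had between 1 and 78 reads over all libraries, at most 11 in any one, and no group mean over 0.186 RPKM. Levels in cluster C did not run in the order of the genes. HOXC11 had 2 reads in all, its neighbour HOXC10 133 and HOXC8 77, whereas HOXC12, HOXC13, HOXC9 and HOXC6 were expressed. The part of position in these levels was not tested.

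The start regions of the tested genes with a known window are shown here because neighbours in cluster C share one in RefSeq, and because a silent gene has a similar one. The RefSeq promoter table (GRCh38.p14; 250 bases before to 50 after a start) held windows for 20 of the 38 genes, 26 windows in all, and for 3 of the 9 tested genes. It held none for HOXC6, HOXC13, HOXC12, HOXC9, HOXA5 or HOXB9. Capitals mark CG dinucleotides, and each sequence reads 5′ to 3′ on the strand of the gene.
HOXC4 and HOXC5 (shared), chr12:54016638-54016937, plus strand: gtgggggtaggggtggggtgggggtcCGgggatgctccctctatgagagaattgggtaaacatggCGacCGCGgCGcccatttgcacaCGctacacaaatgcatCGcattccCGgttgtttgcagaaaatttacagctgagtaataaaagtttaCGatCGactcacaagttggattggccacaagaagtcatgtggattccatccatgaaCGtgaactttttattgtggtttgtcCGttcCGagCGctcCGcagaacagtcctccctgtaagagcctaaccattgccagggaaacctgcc
HOXA10, first start, chr7:27179812-27180111, minus strand: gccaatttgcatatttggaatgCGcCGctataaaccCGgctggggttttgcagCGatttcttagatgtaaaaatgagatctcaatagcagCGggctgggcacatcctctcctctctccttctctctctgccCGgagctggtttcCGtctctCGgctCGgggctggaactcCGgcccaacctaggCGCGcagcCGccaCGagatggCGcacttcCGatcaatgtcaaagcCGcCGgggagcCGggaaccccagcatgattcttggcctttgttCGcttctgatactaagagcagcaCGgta
HOXA10, second start, chr7:27174271-27174570, minus strand: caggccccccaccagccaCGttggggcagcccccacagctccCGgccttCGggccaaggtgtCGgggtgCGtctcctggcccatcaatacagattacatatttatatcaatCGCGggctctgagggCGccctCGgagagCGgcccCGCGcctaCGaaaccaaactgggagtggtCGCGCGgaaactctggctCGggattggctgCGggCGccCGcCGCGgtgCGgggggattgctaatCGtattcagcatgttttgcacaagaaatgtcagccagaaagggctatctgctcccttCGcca
HOXD10, without a read, chr2:176116528-176116827, plus strand: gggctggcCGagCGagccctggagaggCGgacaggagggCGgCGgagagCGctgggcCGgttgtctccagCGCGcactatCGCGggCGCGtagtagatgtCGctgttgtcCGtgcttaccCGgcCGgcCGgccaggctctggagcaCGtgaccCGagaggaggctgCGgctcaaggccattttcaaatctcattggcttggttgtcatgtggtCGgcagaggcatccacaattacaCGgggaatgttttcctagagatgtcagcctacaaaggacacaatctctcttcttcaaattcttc
The HOXC4 and HOXC5 windows were identical letter for letter, and RefSeq gives 54016888 on chromosome 12 as the first base of HOXC4, HOXC5 and HOXC6 alike. The GENCODE coding genes begin elsewhere, HOXC5 at 54032853 and HOXC6 at 53990624. Which start the RNA in these cells came from is not known from the values. In the GENCODE models HOXC4 shared 484 exonic bases with HOXC6 and 305 with HOXC5, and HOXC9 shared 73 with HOXC6. How reads in shared exons were counted is not given in the sources used here, so the values of HOXC4, HOXC5 and HOXC6 are not fully separate measurements. Strand use is not given either. Reads in the 608 exonic bases (16.4% of those of HOXA10) shared with its antisense gene HOXA10-AS therefore cannot be told apart. HOXA10-AS has a row of its own, with a highest group mean of 0.0541 RPKM (pLKO). The shared window held 15 CG dinucleotides, the HOXA10 windows 21 and 25, and that of HOXD10 23. The median was 22.5 in the 26 windows of HOX genes and 14 in all 34943 windows of the table. HOXD10, without a read, had a start as rich in CG as those of HOXA10. The motif TATAAA, on either strand, was in both HOXA10 windows and in neither of the other sequences shown. It was in 19.2% of HOX windows and 11.6% of all windows. The motif CCAAT, on either strand, was in all of the sequences shown, in 65.4% of HOX windows and in 34.6% of all windows.

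Cluster C stood below pLKO in shPALI1 and above it in shJarid2 and shsuz12. In these groups its sum, HOXC6 included, differed more from pLKO in proportion than those of clusters A and B. In shG9a cluster A, at 122.2% of pLKO, and cluster B, at 107.6%, differed more than cluster C with HOXC6. The summed level of its 9 genes was 27.8 ± 1.4 RPKM (SD, n = 3) in pLKO, with libraries at 29.1, 28.1 and 26.3. In shPALI1 it was 17.0 ± 0.4, with libraries at 17.1, 16.5 and 17.3, which is 60.9% of pLKO. It was 28.5 ± 0.5 in shG9a (102.5%), 36.6 ± 4.4 in shJarid2 (131.4%) and 37.5 ± 0.17 in shsuz12 (134.5%). Every shPALI1 library lay below every library of the other groups, and every shJarid2 and shsuz12 library lay above every pLKO and shG9a library. Without replicate 3 of shJarid2 its sum was 127.4% of pLKO. With TPM, which sets all libraries to a common sum, the shsuz12 value was 147.7%, shG9a 111.2% and shPALI1 62.1%. HOXC6 alone made up a large part of the sum, and without it the cluster stood at 58.0% of pLKO in shPALI1, 90.0% in shG9a, 115.7% in shJarid2 and 112.1% in shsuz12. The shG9a sum thus lay on the other side of pLKO without HOXC6. In shJarid2 and shsuz12 cluster C without HOXC6 differed less from pLKO than cluster B, which was at 81.1% and 82.5%. In shsuz12 it also differed less than cluster A, at 86.9%. These sums are descriptions and were not tested.

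Within cluster C the sums of the lower-numbered and the higher-numbered genes were compared, and in shPALI1, shG9a and shsuz12 their order changed when HOXC6 was left out. No other gene was left out in this way. Here paralogue numbers from 4 to 8 are called central and those from 9 to 13 posterior, and cluster C has no anterior gene. The central genes HOXC4, HOXC5, HOXC6 and HOXC8 summed to 61.4% of pLKO in shPALI1, and the posterior genes HOXC9 to HOXC13 to 60.5%, nearly the same. In shJarid2 the values were 158.3% and 105.4%, in shsuz12 152.3% and 117.3%, and in shG9a 111.4% and 93.8%. Without HOXC6 the central genes stood at 47.9% of pLKO in shPALI1, 157.0% in shJarid2, 91.3% in shsuz12 and 74.9% in shG9a. The central genes were thus below the posterior ones in shPALI1, shG9a and shsuz12 without HOXC6, and above them in shJarid2 with or without it. The difference between positions was not tested.

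Cluster A summed to 5.0 ± 0.39 RPKM in pLKO, 4.59 ± 0.56 in shPALI1, 6.11 ± 0.38 in shG9a, 4.43 ± 0.33 in shJarid2 and 4.34 ± 0.62 in shsuz12. The shG9a libraries (5.75, 6.51 and 6.07) lay above the pLKO libraries (5.17, 5.28 and 4.55). The cluster did not move as 1 block: in shsuz12 its posterior genes were at 61.2% of pLKO and its central genes at 110.7%, and in shJarid2 the posterior genes were at 118.8% and the central genes at 58.0%. Cluster B was at 1.62 ± 0.28 RPKM in pLKO, 2.01 ± 0.19 in shPALI1, 1.75 ± 0.43 in shG9a, 1.32 ± 0.29 in shJarid2 and 1.34 ± 0.22 in shsuz12, with overlap between pLKO and every other group. Cluster D had 2, 7, 8, 0 and 9 reads in pLKO, shPALI1, shG9a, shJarid2 and shsuz12, so no change of cluster D could have been detected below the level of a few reads.

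**Figure D2:**
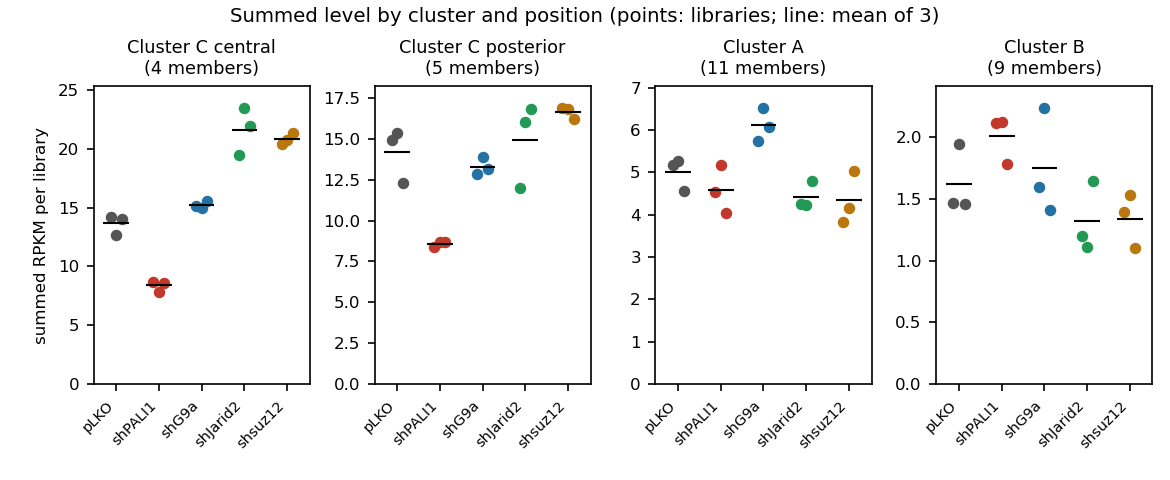
Summed RPKM per library of the central and the posterior genes of cluster C and of all genes of clusters A and B, by group, with points for libraries and a line for the mean of 3. In both cluster C panels the shPALI1 points lie below all others, and the shJarid2 and shsuz12 points rise further in the central panel (158.3% and 152.3% of pLKO) than in the posterior one (105.4% and 117.3%).

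Each knockdown was then compared with pLKO gene by gene, in a limma model on log2(RPKM + 1) fitted to 12715 genes, with Benjamini-Hochberg adjustment over all of them and a call at an adjusted p under 0.05. The scale understates the change of genes near 1 RPKM, and the comparisons share the pLKO libraries. In shPALI1, 5 of the 9 tested HOX genes fell and 1 rose, where 25.1% of all tested genes fell and 16.5% rose. The one that rose was HOXB9, and among the other 8 genes 5 fell, with a median log2 change of -0.46. In shG9a 1 fell and 1 rose, against a background of 24.7% and 18.4%. In shJarid2 1 fell and 3 rose (background 27.2% and 23.8%), and in shsuz12 2 fell and 2 rose (32.8% and 21.1%). The median log2 change of the 9 genes was -0.38 in shPALI1, -0.08 in shG9a (0.02 with TPM), 0.16 in shJarid2 and 0.18 in shsuz12, and that of all tested genes was -0.052, -0.04, -0.038 and -0.078. With both directions together, the counts in shG9a, shJarid2 and shsuz12 were no higher than the background gives. Without replicate 3 of shJarid2, 2 genes rose there and none of the others was called.

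**Figure D3:**
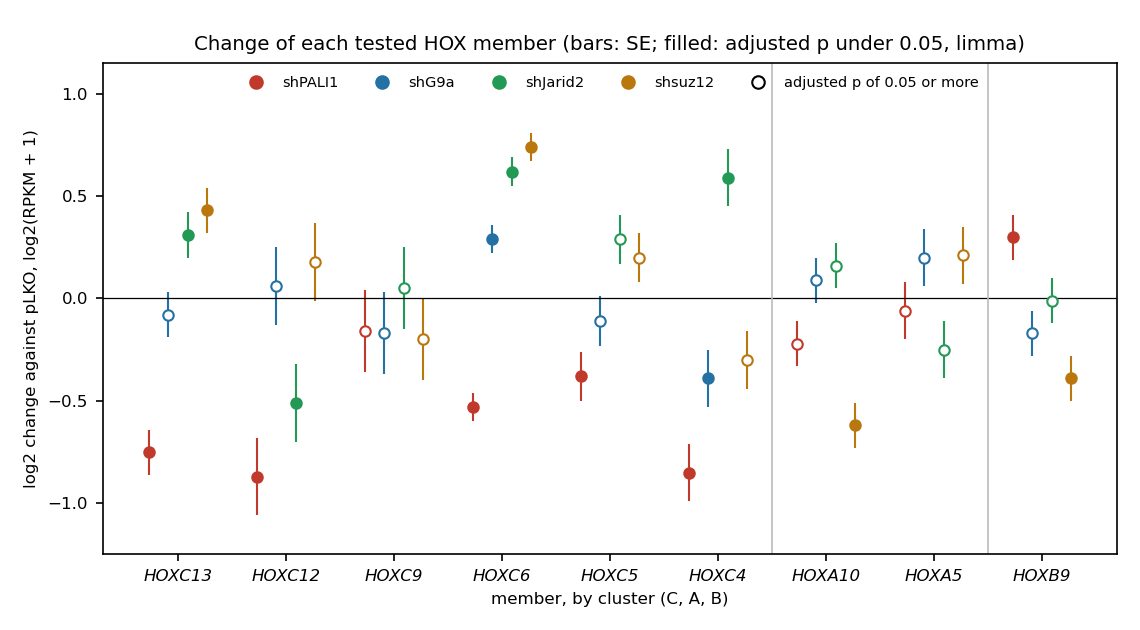
Change of each tested HOX gene against pLKO on the log2(RPKM + 1) scale in the 4 knockdowns, with bars for the SE and filled points for an adjusted p under 0.05 in limma. The shPALI1 points of cluster C lie from -0.87 to -0.16, while HOXC6 was higher in the other 3 knockdowns (0.29, 0.62 and 0.74).

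HOXC6, reported by many studies as raised in prostate cancer, was the most abundant of the 38 genes in every group and was called in each comparison. Its level was 11.0, 9.51 and 9.90 RPKM in the pLKO libraries and 7.09, 6.55 and 6.46 in shPALI1. It was 12.4, 12.3 and 13.1 in shG9a, 14.9, 17.3 and 16.0 in shJarid2, and 16.9, 17.6 and 18.4 in shsuz12. No shPALI1 library reached the pLKO range, and every library of the other knockdowns lay above it. The log2 change was -0.53 ± 0.07 (SE) in shPALI1 (adjusted p = 4e-05 in limma) and 0.29 ± 0.07 in shG9a (0.0046). It was 0.62 ± 0.07 in shJarid2 (6.1e-06) and 0.74 ± 0.07 in shsuz12 (1.1e-06). All 4 calls held in each alternative setting that was run and without any single library.

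HOXC13, which controls hair and nail keratins and lies at the posterior end of the cluster, was likewise lowest in shPALI1 and highest in shsuz12 by group mean. The pLKO libraries were at 7.19, 7.10 and 6.63 RPKM, those of shPALI1 at 4.51, 3.46 and 3.34, and those of shG9a at 6.50, 6.73 and 6.35. They were at 7.28, 9.39 and 10.3 in shJarid2 and at 9.14, 10.3 and 9.81 in shsuz12. The shPALI1 libraries were separate from and below pLKO, and the shsuz12 libraries separate from and above it, while the lowest shJarid2 library was close to the highest of pLKO. HOXC13 fell in shPALI1 (log2 change -0.75 ± 0.11, adjusted p = 9.3e-05 in limma) and rose in shsuz12 (0.43 ± 0.11, 0.0044). It passed in shJarid2 as well (0.31 ± 0.11, 0.027), but not with the 6 libraries of shJarid2 and pLKO alone (adjusted p = 0.085), without replicate 3 of shJarid2 (0.22, adjusted p = 0.10), without its replicate 2 (0.28, 0.085), without pLKO replicate 2 (0.33, 0.052) or without pLKO replicate 3 (0.28, 0.085). In shG9a it did not pass (-0.08 ± 0.11, adjusted p = 0.57).

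HOXC12 is the neighbour of HOXC13 and was covered by few reads, between 9 and 61 in a library. It stood at 3.34, 3.40 and 2.22 RPKM in the pLKO libraries, at 1.00, 1.71 and 0.858 in shPALI1, and at 2.51, 4.03 and 2.96 in shG9a. In shJarid2 it was at 2.08, 2.24 and 1.14, and in shsuz12 at 3.71, 3.75 and 3.03. Only shPALI1 was separate from pLKO, at 39.9% of its mean, and the shJarid2 range touched that of pLKO. HOXC12 fell in shPALI1 (log2 change -0.87 ± 0.19, adjusted p = 0.0024 in limma) and was called lower in shJarid2 (-0.51 ± 0.19, 0.038). The shJarid2 call was lost without shJarid2 replicate 3 (-0.32, adjusted p = 0.16), without pLKO replicate 1 (0.12) or without pLKO replicate 2 (0.13). It was also lost with no filter (0.081), with quantile normalization (-0.39, adjusted p = 0.091) and with the 6 libraries of the groups alone (0.064). So HOXC12 and HOXC13, which are neighbours, were called in opposite directions in shJarid2, and both calls there rested on single libraries.

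HOXC4, at the other end of the cluster and known in B cells as an activator of the antibody-diversifying enzyme AID, ran from 36.7% to 173.4% of pLKO, the widest span of the 9 tested genes. Its libraries were at 2.03, 2.14 and 2.63 RPKM in pLKO, 0.606, 0.589 and 1.30 in shPALI1, and 1.47, 1.68 and 1.34 in shG9a. They were at 3.37, 4.23 and 4.21 in shJarid2 and 1.87, 1.51 and 1.56 in shsuz12. The groups on either side of pLKO did not overlap with it: shPALI1, shG9a and shsuz12 lay below and shJarid2 above. HOXC4 fell in shPALI1 to 36.7% (log2 change -0.85 ± 0.14, adjusted p = 0.00022 in limma) and rose in shJarid2 to 173.4% (0.59 ± 0.14, 0.0024). The shG9a call (-0.39 ± 0.14, adjusted p = 0.035) was lost without pLKO replicate 2 (0.058), pLKO replicate 3 (0.13), shG9a replicate 1 (0.081) or shG9a replicate 3 (0.11). In shsuz12 it was at 72.6% and did not pass (-0.30 ± 0.14, adjusted p = 0.078), though it did with the 6 libraries of the groups alone (0.035). HOXC4 and HOXC6 thus lay on opposite sides of pLKO in shG9a and in shsuz12, although part of their exons is shared.

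HOXC5, the least abundant of the tested cluster C genes in pLKO, was at 55.2% of pLKO in shPALI1, 86.1% in shG9a and 127.4% in shsuz12, and it was highest in shJarid2 by group mean. Its libraries were at 1.12, 0.866 and 1.30 RPKM in pLKO, 0.740, 0.468 and 0.603 in shPALI1, and 1.05, 0.786 and 0.994 in shG9a. It was at 1.19, 1.88 and 1.66 in shJarid2 and 1.5, 1.43 and 1.26 in shsuz12. It fell in shPALI1, where no library reached the pLKO range (log2 change -0.38 ± 0.12, adjusted p = 0.019 in limma). That call was lost without pLKO replicate 1 (adjusted p = 0.050), pLKO replicate 3 (0.075) or shPALI1 replicate 2 (0.080). In shJarid2 it just missed the threshold (0.29 ± 0.12, adjusted p = 0.052) and passed without shJarid2 replicate 1 (0.012) or pLKO replicate 3 (0.035), and with median ratio scaling (0.041) or quantile normalization (0.017).

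HOXC9, which in the spinal cord specifies thoracic motor neurons, was at 3.83, 4.52 and 2.90 RPKM in pLKO. It was at 2.52, 3.07 and 4.16 in shPALI1, 3.38, 2.60 and 3.62 in shG9a, 2.54, 4.19 and 5.26 in shJarid2, and 3.72, 2.59 and 3.07 in shsuz12. All groups overlapped, and HOXC9 passed in none of the 4 comparisons (log2 changes from -0.20 to 0.05, each with an SE of 0.2). With an SE of that size, a change like that of HOXC6 in shPALI1 could have been missed for HOXC9.

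**Figure D4:**
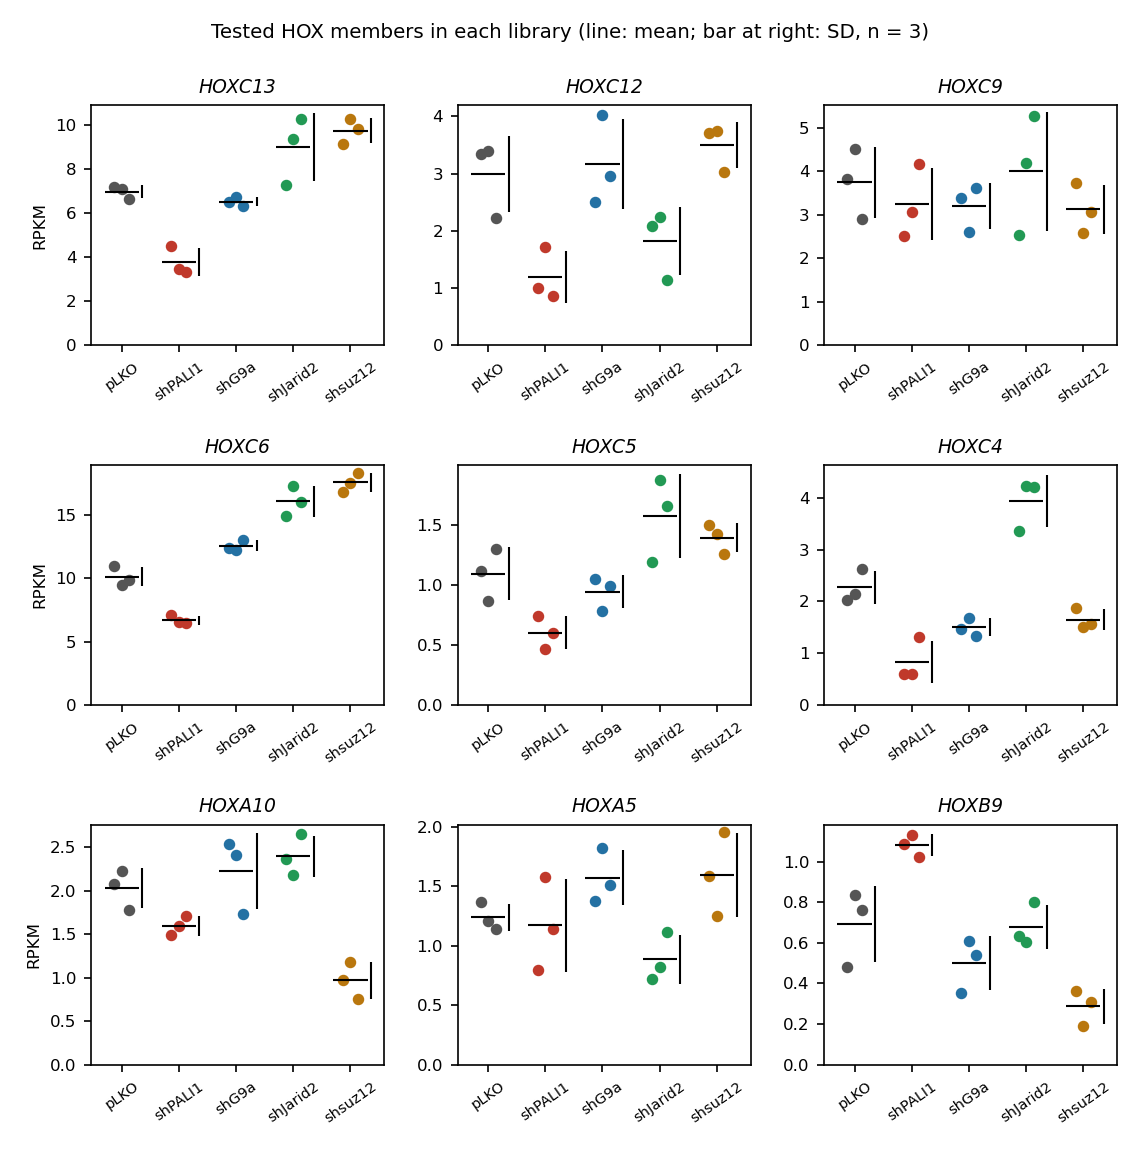
RPKM of the 9 tested HOX genes in each of the 15 libraries, with a line for the group mean and a bar for the SD (n = 3); each vertical axis starts at 0. The shPALI1 points are the lowest for HOXC13, HOXC6, HOXC5 and HOXC4, the shsuz12 points are the lowest for HOXA10, and the groups of HOXC9 overlap.

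In cluster A, HOXA10, a posterior gene needed for the development of the uterus and male accessory tissues, fell under shsuz12 and in no other comparison with pLKO. It was at 2.08, 2.23 and 1.78 RPKM in the pLKO libraries, 1.49, 1.60 and 1.71 in shPALI1, and 2.53, 2.42 and 1.73 in shG9a. In shJarid2 it was at 2.36, 2.18 and 2.65, and in shsuz12 at 0.972, 1.18 and 0.756. All shsuz12 libraries lay below every other library, at 47.8% of the pLKO mean (log2 change -0.62 ± 0.11, adjusted p = 0.00038 in limma). The shPALI1 libraries also lay below those of pLKO but did not pass (-0.22 ± 0.11, adjusted p = 0.14), and shG9a (0.09) and shJarid2 (0.16) did not pass either.

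HOXA5, best known from lung development, was at 1.37, 1.21 and 1.14 RPKM in pLKO and 0.800, 1.58 and 1.14 in shPALI1. It was at 1.37, 1.83 and 1.52 in shG9a, 0.725, 0.821 and 1.11 in shJarid2, and 1.59, 1.25 and 1.96 in shsuz12. It passed in none of the 4 comparisons in limma, with log2 changes of -0.06, 0.20, -0.25 and 0.21 and an SE of 0.14. The shJarid2 libraries nevertheless all lay below those of pLKO. The shG9a libraries all lay above them by a narrow margin, the lowest at 1.374 RPKM against 1.367 for the highest of pLKO.

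HOXB9, the most posterior of the B genes considered here, was at 0.479, 0.837 and 0.763 RPKM in pLKO and 1.09, 1.13 and 1.03 in shPALI1. It was at 0.354, 0.609 and 0.543 in shG9a, 0.632, 0.604 and 0.803 in shJarid2, and 0.363, 0.192 and 0.308 in shsuz12. It was the 1 tested gene that was higher in shPALI1 than in pLKO, and its mean was lowest in shsuz12. It fell in shsuz12 to 41.5% (log2 change -0.39 ± 0.11, adjusted p = 0.0080 in limma), a call that held in all 13 alternatives in which it was tested. Its higher level in shPALI1 (0.30 ± 0.11, adjusted p = 0.039) is given as a description, since these libraries let it into the test, and without pLKO replicate 1 it did not pass (0.21, adjusted p = 0.16). HOXB13, at 48.7%, 43.7%, 129.4% and 56.2% of pLKO in shPALI1, shG9a, shJarid2 and shsuz12, shared the direction of HOXB9 in shsuz12 but not in shPALI1.

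The knockdowns were also compared with each other, without pLKO, which tests directly whether the responses differed. Between shPALI1 and shG9a 6 of the 9 genes were called, where 48.2% of all tested genes were. The counts were 7 between shPALI1 and shsuz12 (background 55.9%), 6 between shPALI1 and shJarid2 (62.3%) and 5 between shsuz12 and shJarid2 (59.0%), counts that are to be read against those shares. The first 3 of these comparisons share the shPALI1 libraries, which let HOXB9 into the test. Without HOXB9 the counts there were 5, 6 and 5 of 8 genes, in the order shG9a, shsuz12 and shJarid2. In each of them 5 of the 9 genes were lower in shPALI1. HOXC6 was lower in shPALI1 than in shG9a (log2 difference -0.82 ± 0.07, adjusted p = 3.8e-07 in limma), than in shsuz12 (-1.27 ± 0.07, 4.4e-09) and than in shJarid2 (-1.15 ± 0.07, 6.4e-09). In the same order the log2 difference was -0.67, -1.18 and -1.06 for HOXC13 and -0.47, -0.55 and -1.45 for HOXC4, all called. HOXC12 differed between shPALI1 and shG9a (-0.93 ± 0.19, adjusted p = 0.0011) and shsuz12 (-1.05 ± 0.19, 0.00032). Between shPALI1 and shJarid2 it missed the threshold (-0.36 ± 0.19, adjusted p = 0.12) and passed without shJarid2 replicate 3 (-0.55, 0.018) or without shPALI1 replicate 2 (-0.52, 0.037), and with quantile normalization (-0.47, 0.037) or the replicate block (0.027). HOXC9 was called in none of these 4 comparisons, but in shsuz12 against shJarid2 it passed without shJarid2 replicate 1 (adjusted p = 0.041).

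The hairpins against a core and an accessory protein of PRC2, shsuz12 and shJarid2, differed in 5 of the 9 genes. As 59.0% of all tested genes were called between them, this count is no higher than the background gives. HOXC4 was lower in shsuz12 than in shJarid2 (log2 difference -0.90 ± 0.14, adjusted p = 7.1e-05 in limma), and so were HOXA10 (-0.79 ± 0.11, 4.1e-05) and HOXB9 (-0.38 ± 0.11, 0.0080). HOXC12 was higher in shsuz12 (0.69 ± 0.19, adjusted p = 0.0065), as was HOXA5 (0.46 ± 0.14, 0.011), which did not pass without shsuz12 replicate 3 (adjusted p = 0.058) or with quantile normalization (0.075). HOXC6 and HOXC13 did not pass (0.12 ± 0.07 and 0.12 ± 0.11, adjusted p = 0.15 and 0.38), but with TPM, which moves the median of all genes in this comparison from -0.049 to 0.079, both were called higher in shsuz12 (0.27 and 0.26). HOXC6 was also called there with median ratio scaling (0.18) and quantile normalization (0.28). HOXA10 was higher in shPALI1 than in shsuz12 (0.40 ± 0.11, adjusted p = 0.0076) and lower than in shJarid2 (-0.38 ± 0.11, 0.0092). Its call against shG9a (-0.30 ± 0.11, adjusted p = 0.040) was lost on leaving out any shPALI1 library (0.055 to 0.11) or shG9a replicate 1 (0.15) or 2 (0.13), with a pseudocount of 0.1 (0.053) and with no filter (0.065). HOXC5 was not called against shG9a but passed with a pseudocount of 0.1 (adjusted p = 0.040) and with TPM (0.043). HOXC4 against shG9a (adjusted p = 0.012) was lost without shPALI1 replicate 1 (0.057) or 2 (0.059). HOXB9 was higher in shPALI1 than in shG9a, shsuz12 and shJarid2 by 0.47, 0.69 and 0.31 on the log2 scale, which is given as a description for the reason above. HOXA5 did not pass in any comparison of shPALI1 with another knockdown, but without shPALI1 replicate 2 it did against shG9a (-0.39, 0.041) and shsuz12 (-0.39, 0.031).

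The low genes were reached by the same model without a filter, which tested 33 of the 38 HOX genes among 22023 genes. There 7 HOX genes were called in shPALI1, 1 in shG9a, 5 in shJarid2 and 6 in shsuz12, where 25.8%, 26.0%, 31.0% and 33.0% of all genes were called in either direction. Of the genes left out before, HOXC10 was lower in shJarid2 (log2 change -0.36, adjusted p = 0.0019), with 3, 5 and 4 reads against 13, 11 and 12 in pLKO. It was also lower in shsuz12 (-0.22, 0.033), with 10, 6 and 7 reads. HOXC8 was lower in shJarid2 (-0.18, adjusted p = 0.011), with 0, 0 and 2 reads against 2, 7 and 6. HOXB6 was lower in shsuz12 (-0.22, adjusted p = 0.029), and HOXB8 was higher in shPALI1 (0.11, 0.047), where 3, 1 and 1 reads stood against 0 in each pLKO library. Each of these rests on a few reads. No gene of cluster D was called, and no gene that had no read in pLKO other than HOXB8 was called.

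Proteins and RNAs that work with HOX genes were counted from lists, and their counts are to be read against the shares of all genes called that are given above for each comparison. The TALE homeodomain proteins bind DNA together with HOX proteins, and 7 of 9 were tested. In shPALI1 2 fell and none rose, in shG9a 3 fell and 1 rose, in shJarid2 2 fell and 2 rose, and in shsuz12 2 fell and 4 rose, with median log2 changes of -0.02, -0.23, 0.08 and 0.28. PBX3, one of these partners of HOX proteins, was at 4.31 RPKM in pLKO. It fell to 36.9% in shPALI1 (log2 change -1.03, adjusted p = 8.4e-07 in limma) and to 45.9% in shG9a (-0.84, 6.3e-06). It rose to 129.8% in shJarid2 and to 139.2% in shsuz12. PKNOX2 fell in all 4 knockdowns, to 35.6%, 35.3%, 43.4% and 75.1% of 3.27 RPKM. PKNOX1 fell in shG9a (77.6%) and shsuz12 (61.8%).

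Of 21 listed activators of HOX genes in the table, such as trithorax methyltransferases, histone demethylases and retinoic acid receptors, 17 were tested. In shPALI1 4 fell and 3 rose, in shG9a 6 and 2, in shJarid2 6 and 4, and in shsuz12 4 and 6, with median log2 changes of -0.05, -0.01, -0.15 and -0.10. RARG, a retinoic acid receptor, fell in every knockdown, to 41.8%, 59.5%, 57.0% and 52.9% of 6.01 RPKM in the order shPALI1, shG9a, shJarid2 and shsuz12. KDM6B, which removes the methyl mark set by PRC2, rose in every knockdown, to 131.7%, 197.4%, 164.1% and 182.6% of 18.6 RPKM. PSIP1, which tethers trithorax complexes to chromatin, fell to 50.7% in shG9a, 79.1% in shJarid2 and 62.4% in shsuz12. All of these calls were made with limma at an adjusted p under 0.05.

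Long non-coding and antisense RNAs of the clusters were mostly low or absent, and 3 of the 17 in the table were tested. Of those not tested, HOXA11-AS had group means from 0.476 (shPALI1) to 0.854 RPKM (shG9a). HAGLROS, not tested either, was at 0.0736 RPKM in pLKO, 0.393 in shPALI1, 0.241 in shG9a, 0.196 in shJarid2 and 0.557 in shsuz12. In shG9a 2 of the 3 were called higher, HOXC-AS1 among them, which entered the test through the shG9a libraries. In the other knockdowns none was called in either direction. HOTAIRM1, a non-coding RNA of cluster A, rose in shG9a to 4.42 from 2.49 RPKM (log2 change 0.64, adjusted p = 0.0054 in limma). HOXC-AS1 was at 1.44 RPKM in shG9a (1.27 to 1.61 over its libraries) and 0.487 in pLKO (0.115 to 1.03). Its higher level in shG9a (0.76, adjusted p = 0.023) is given as a description, since these libraries let it into the test. HOXC13-AS, which overlaps 172 exonic bases of HOXC13 on the other strand, did not pass in any knockdown. It was at 98.8% of pLKO in shPALI1, where HOXC13 was at 54.1%.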

How the data were processed

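The authors deposited 1 table of RPKM values for 15 libraries, with reads aligned by STAR to hg38, per the submitters' processing notes. Which counter and annotation were used, and whether with strand, is not given in the sources used here. Library depth and the reads behind each HOX gene were worked out from the steps of the RPKM values, which came out whole within a tolerance of 0.05 for each HOX gene. Groups were compared with limma 3.58.1 in R 4.3.3 on log2(RPKM + 1) with a mean-variance trend, in 1 model of all libraries, on genes of at least 1 RPKM in at least 3 libraries; the script was tested on simulated data. Nothing in the labels says that replicates were separate cultures, so a p-value covers library-to-library spread that may be technical. The HOX genes and the lists were chosen with earlier results of these data known. All tested HOX genes, and others with a group mean of at least 0.2 RPKM, are named, with 3 genes per list by smallest p, except that some genes are not reported here. As alternatives, the pseudocount was set to 0.1 or 0.5, the filter was dropped or set to a mean of 3 RPKM, and values were scaled by median ratio, by quantiles or to TPM; further ones were the 6 libraries alone, a replicate block, and each library left out. Gene positions are from GENCODE v29 and promoter windows from RefSeq GRCh38.p14.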

Additional observations from a re-analysis of the deposited data

How the results depend on the processing

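The log2 changes of single HOX genes against pLKO kept their side of the threshold in 281 of 296 values under other settings and in 196 of 213 values with 1 library left out; 12 and 15 calls were lost and 3 and 2 were gained. The sign changed in 3 and 9 of these values, all of changes that were not called. Testing only genes with a mean of 3 RPKM or more left 3 HOX genes to test. It called 2 in shPALI1, 1 in shG9a, 2 in shJarid2, 2 in shsuz12 and 2 in each comparison of shPALI1 with another knockdown, against 6, 2, 4, 4, 6, 7 and 6. In shsuz12 against shJarid2 it called 0 in limma, also at an unadjusted p under 0.05, against 5. In shG9a 1 HOX gene in place of 2 was called with a pseudocount of 0.1, with no filter, with median ratio scaling and with TPM, since HOXC4 did not pass. In shJarid2 2 in place of 4 were called with the 6 libraries alone. With 1 library left out, 1 to 2 were called in shG9a, 2 to 5 in shJarid2 and 3 to 6 between shPALI1 and shG9a. HOXB9 in shPALI1 was not called with pseudocounts of 0.1 (adjusted p = 0.092) and 0.5 (0.053), with quantile normalization (0.054) or with the 6 libraries alone (0.074). TPM moved the median of all genes in shsuz12 from -0.078 to 0.031, and the share of calls that were higher from 39.1% to 53.3%; in shG9a that share went from 42.7% to 58.0%. With TPM it also went from 50% to 38.7% between shPALI1 and shG9a, from 55.3% to 44.4% between shPALI1 and shsuz12 and from 42.7% to 57.2% between shsuz12 and shJarid2, and with median ratio scaling from 39.1% to 50.9% in shsuz12.

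Same-numbered libraries did not deviate together: r of their deviations ran from -0.27 to 0.30, over 0.1 in 7 of 30 pairs. With the replicate block, 6, 2, 4 and 4 HOX genes were called against pLKO, as without it, and 7 in place of 6 between shPALI1 and shJarid2, where HOXC12 passed. Depth limits the low genes, where a few reads decide a value.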

Other observations

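Genes that flank the HOX clusters were counted from a list, of which 15 of the 19 in the table were tested. In shPALI1 6 rose and 4 fell, in shG9a 2 and 4, in shJarid2 6 and 4, and in shsuz12 2 and 6. Of all tested genes 16.5% rose and 25.1% fell in shPALI1, and 18.4% and 24.7% in shG9a. These shares were 23.8% and 27.2% in shJarid2, and 21.1% and 32.8% in shsuz12, and the counts are to be read against them. The median log2 changes of the flanking genes were -0.08, -0.04, 0.01 and -0.12. PRAC1, a small protein of prostate and colon encoded beside HOXB13, rose in shPALI1 to 370.4 from 108.9 RPKM (log2 change 1.75, adjusted p = 2.8e-08 in limma), where HOXB13 fell to 61.5 from 126.1 RPKM. It rose in shJarid2 to 165.0 RPKM (0.59, 0.00046). CBX1, which encodes the beta form of heterochromatin protein HP1 and lies outside cluster B, fell in shJarid2 to 9.19 from 32.5 RPKM (-1.72, 7.5e-10) and rose in shPALI1 to 41.2 RPKM (0.33, 0.0019). HNRNPA1, a splicing factor in the flank of cluster C, rose in shPALI1 to 82.4 from 54.7 RPKM (0.58, 0.00016), where 5 HOX genes of that cluster fell. It fell in shJarid2 to 32.2 RPKM (-0.75, 1e-05). CBX5, also listed beside cluster C, fell in shPALI1 to 13.2 from 26.9 RPKM (-0.97, adjusted p = 0.00013 in limma). SMUG1 and CALCOCO1, listed there too, were at 79.8% and 94.2% of pLKO in shPALI1 and did not pass.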
